A study of Mus musculus with 8 samples.

Results

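The 9 genes of fatty acid uptake and binding were followed in gastric epithelial cells of mice on a high fat diet and of control mice. The set was chosen by gene symbol: the fatty acid binding proteins Fabp1, Fabp2, Fabp4 and Fabp5, the surface receptor Cd36, the transporters Slc27a1, Slc27a2 and Slc27a4, and the acyl-CoA binding protein Dbi. All 9 had a row, among 38920 rows per library. The study sequenced total RNA of cells sorted from the stomach of C57BL/6 mice, with 4 libraries from mice fed the high fat diet (HFD 22, 23, 26 and 27) and 4 from control mice (ND 15-17-18, 16, 19 and 20). No transgene or other agent is named for either group, and the sources used here give no age, sex or length of feeding. The labels do not say whether a library came from 1 mouse, and the title of ND 15-17-18 lists 3 numbers, so p-values measure the spread between these libraries.

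Long-chain fatty acids enter cells by diffusion and with the help of membrane proteins. Cd36 binds fatty acids and lipoproteins at the surface, while the Slc27 proteins (fatty acid transport proteins) join uptake to activation, since they carry acyl-CoA synthetase activity. Inside the cell the small barrel-shaped Fabp proteins hold fatty acids in solution, and Dbi does the same for their activated form, acyl-CoA. Several of these genes are known targets of the PPAR nuclear receptors, which bind fatty acids and, with RXR, recognise repeats of the letters AGGTCA. Fabp1 and Fabp2 are best known from the liver and the absorptive cells of the small intestine, Fabp4 from adipocytes, macrophages and capillary endothelium, and Fabp5 from squamous epithelium.

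Values are log2(value + 1) of the authors' normalised values, on a median-ratio scale, which brings the typical abundant row of each library to the same level. On the deposited scale, where all libraries have a common total, the median row tested was 0.90 higher in HFD; on the median-ratio scale it was 0.12 higher. Estimated depth was 31.4 to 46.0 M reads in HFD libraries and 16.4 to 63.2 M reads in ND libraries. The 20 most abundant rows took 29.0% to 43.1% of the total in HFD libraries, and 85.8%, 27.8%, 59.1% and 41.2% in ND 15-17-18, 16, 19 and 20. ND 15-17-18 and ND 19 stood apart in this share, and results are also given without them where that moves a value by over 1.5 times or ends an overlap. The general epithelial markers (Epcam, Krt8, Krt18, Krt19 and others), all 8 of them tested, averaged 13.07 to 13.33 in HFD libraries and 13.11 to 13.32 in ND libraries. As a list, markers of the labelled cell type were thus abundant in every library. Single genes moved both ways without overlap. Epcam was higher in HFD (12.44 to 12.71, ND 11.60 to 12.25), as were 4.72% of all rows. Cdh1 was lower (14.48 to 14.77, ND 14.90 to 15.33), as were 3.12% of all rows.

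The promoters that carry AGGTCA, the unit of the repeat that PPAR and related receptors read, are shown first. For 7 of the 9 genes RefSeq (GRCm38.p6, the assembly also called mm10) gave a start site, and Fabp4 and Fabp5 were not matched. The 250 bases before the start were searched on both strands for the hexamer AGGTCA, for its direct repeat with 1 base between the copies, and for TATAAA, the core promoter box. GGGCGG and CCAAT were searched for as well, and their matches are not marked here. Capitals mark AGGTCA, which reads TGACCT on the other strand, and TATAAA. The sequences run 5′ to 3′ on the strand of the gene: Fabp1 from the plus strand of chr6:71199629-71199878, Slc27a2 from the plus strand of chr2:126552774-126553023, Cd36 from the minus strand of chr5:17835897-17836146, and Slc27a4 from the plus strand of chr2:29802384-29802633, which holds neither and is shown for contrast.
Fabp1: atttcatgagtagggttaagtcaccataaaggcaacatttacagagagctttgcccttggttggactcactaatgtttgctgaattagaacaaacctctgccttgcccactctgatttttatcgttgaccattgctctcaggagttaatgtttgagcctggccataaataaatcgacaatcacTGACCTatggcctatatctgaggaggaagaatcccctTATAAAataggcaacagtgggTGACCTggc
Slc27a2: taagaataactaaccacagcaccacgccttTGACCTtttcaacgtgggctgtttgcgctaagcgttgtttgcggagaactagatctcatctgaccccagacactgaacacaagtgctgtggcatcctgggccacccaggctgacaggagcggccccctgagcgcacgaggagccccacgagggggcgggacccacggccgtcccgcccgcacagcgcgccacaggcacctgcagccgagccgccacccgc
Cd36: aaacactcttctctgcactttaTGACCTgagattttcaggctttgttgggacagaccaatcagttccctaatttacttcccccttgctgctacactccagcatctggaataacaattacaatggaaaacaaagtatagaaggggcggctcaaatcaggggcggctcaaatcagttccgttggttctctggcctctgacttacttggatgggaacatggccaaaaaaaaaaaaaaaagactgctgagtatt
Slc27a4: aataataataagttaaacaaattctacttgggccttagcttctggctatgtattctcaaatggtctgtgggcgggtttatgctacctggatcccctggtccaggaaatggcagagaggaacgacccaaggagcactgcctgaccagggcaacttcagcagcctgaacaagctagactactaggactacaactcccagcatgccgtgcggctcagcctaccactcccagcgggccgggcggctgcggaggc
The Fabp1 window holds TGACCT at 67 to 62 and at 9 to 4 bases before the start, and TATAAA at 30 to 25 bases before it. Slc27a2 has TGACCT at 220 to 215 bases and Cd36 at 228 to 223 bases before the start. The Cd36 start used here lies inside the annotated span of the gene, and its outer 5′ end, at 17888959, was not searched. Among 32851 promoter windows of this length 14.02% held AGGTCA, 12.4% held TATAAA and 0.03% held an exact direct repeat. No window of these genes held that exact repeat. Repeats with a changed letter were not searched for. In the Fabp1 window the TGACCT at 67 to 62 is followed, after 1 base, by TGGCCT, which such a search would miss. The windows of Fabp2, Slc27a1, Slc27a4 and Dbi held no AGGTCA. A match is a string of letters and not a measured binding site.

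Fabp1 and Dbi stood higher in every HFD library than in any ND library, Fabp2, Fabp4 and Slc27a2 had higher means in HFD with overlapping libraries, and the differences of Cd36, Slc27a1, Slc27a4 and Fabp5 lay between -0.08 and 0.14. None of the 9 passed limma's test at an adjusted p of 0.05 over the 27401 rows tested, where 0.0109% of rows passed. At an unadjusted p under 0.05, 4 of the 9 were higher and 0 lower, against 6.43% of all rows higher and 4.09% lower. Groups that did not overlap were found for 2 of the 9, both higher in HFD, against 4.72% of all rows. Differences were positive for 7 of the 9, against 59.9% of all rows. The median difference of the 9 was 0.72 and that of all rows 0.12. All 9 passed the filter on low values. On the deposited scale 0 of the 9 were called (0.0584% of all rows), 5 were higher at an unadjusted p under 0.05 (9.25% of all rows), 3 had groups that did not overlap, all higher in HFD (7.82%), and 9 were positive (89.9%).

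**Figure D1:**
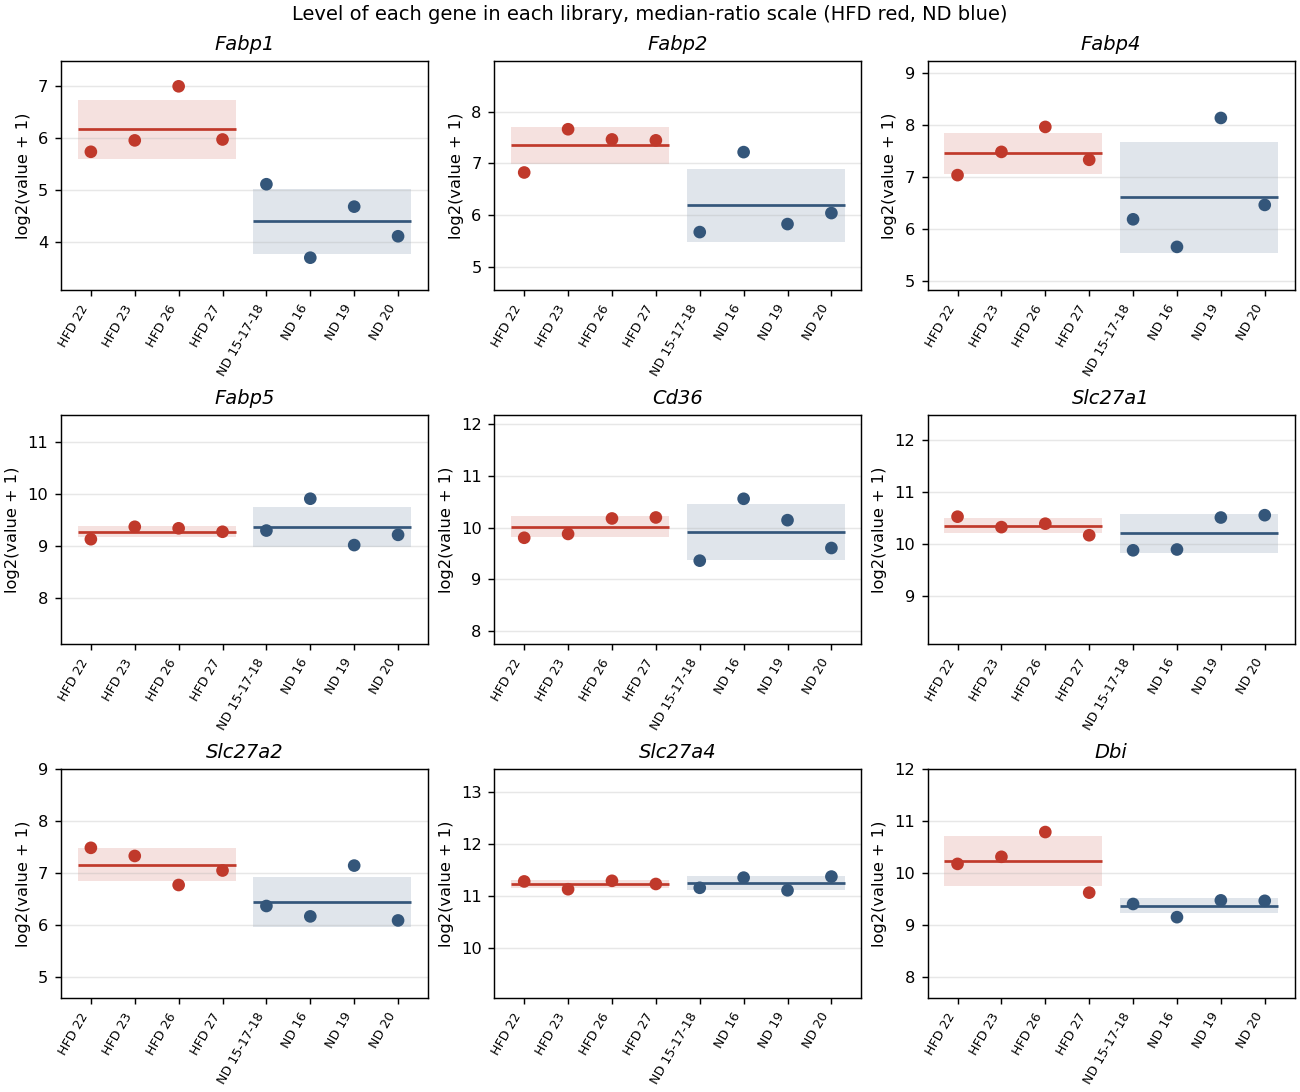
Level of each gene in each of the 8 libraries, as log2(value + 1) on the median-ratio scale, with HFD libraries in red on the left and ND libraries in blue on the right; lines are group means and bands are 1 SD (n = 4 each). Every panel spans the same height, and the groups are apart for Fabp1 and Dbi, while for Slc27a4 all 8 libraries lie between 11.11 and 11.37.

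Fabp1, the liver-type fatty acid binding protein (chromosome 6, 71199879 to 71205034), had the largest difference of the 9. It stood at 5.74, 5.96, 7.0 and 5.98 in HFD 22, 23, 26 and 27, and at 5.12, 3.70, 4.69 and 4.12 in ND 15-17-18, 16, 19 and 20. All HFD libraries were above all ND libraries, with HFD 26 the highest and ND 16 the lowest. The means were 6.17 ± 0.56 in HFD and 4.41 ± 0.62 in ND (SD, n = 4 each). The log2 difference was 1.77 ± 0.48 (SE), a 3.40-fold level with an interval of 1.62 to 7.13 (95%), and the limma adjusted p was 0.26. Divided by the estimated worth of 1 read, the values behind this were 53.6, 63.5, 189.8 and 73.4 reads in HFD 22, 23, 26 and 27, against 8.5, 14.5, 7.4 and 28 reads in ND 15-17-18, 16, 19 and 20. Fabp1 was thus a low gene in ND libraries. With a pseudocount of 100 its difference was 0.51, and on the deposited scale it was 2.58, with limma adjusted p of 0.33 and 0.25. Without ND 15-17-18 and ND 19 it was 2.26 (limma adjusted p = 0.23). Over all 18 alternatives the difference was positive and the limma adjusted p ran from 0.18 to 0.58.

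Fabp2, the intestinal fatty acid binding protein (chromosome 3, 122895072 to 122899506), was at 6.83, 7.66, 7.46 and 7.45 in HFD 22, 23, 26 and 27, and at 5.68, 7.22, 5.83 and 6.05 in ND 15-17-18, 16, 19 and 20. The groups overlapped through ND 16 alone, which lay above HFD 22. The difference was 1.15 ± 0.37 (SE), 2.23-fold with an interval of 1.25 to 3.96 (limma adjusted p = 0.32). Without ND 16 it was 1.5 with no overlap (limma adjusted p = 0.19), and on the deposited scale it was 1.98 (limma adjusted p = 0.39). Without ND 15-17-18 and ND 19, which had 12.7 and 16.8 estimated reads of Fabp2, it was 0.72 (limma adjusted p = 0.54).

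Fabp4 and Fabp5, the adipocyte and epidermal types, are both on chromosome 3, at 10204342 to 10208616 and 10012585 to 10016610. They belong to a cluster with Pmp2, Fabp9 and Fabp12 that spans 288.9 kb, and Pmp2 and Fabp9 lie between them. Fabp4 was at 7.04, 7.48, 7.97 and 7.33 in HFD 22, 23, 26 and 27, and at 6.19, 5.66, 8.14 and 6.46 in ND 15-17-18, 16, 19 and 20. ND 19 was the highest of the 8 libraries, and the other 3 ND libraries lay below all HFD libraries. The difference of 0.84 ± 0.49 (SE; limma adjusted p = 0.56) became 1.35 without ND 19 (limma adjusted p = 0.17) and 1.40 without ND 15-17-18 and ND 19 (limma adjusted p = 0.27), in both cases with no overlap. It was 0.53 without ND 16 (limma adjusted p = 0.69), and was 1.68 on the deposited scale. Fabp5, which binds fatty acids in skin and many other tissues, ranged from 9.13 to 9.37 in HFD libraries and from 9.01 to 9.90 in ND libraries, so the HFD libraries fell inside the ND range. Its difference was -0.08 ± 0.19 (SE), with an interval of -0.50 to 0.34 (limma adjusted p = 0.89), and 0.77 on the deposited scale. Without ND 15-17-18 and ND 19 it was -0.28 (limma adjusted p = 0.64). Of the rest of the cluster, Fabp12 differed by 0.19 ± 0.33 (SE), Pmp2 was near the floor at -0.49 ± 1.14 (SE), and Fabp9 was listed at 0 in every library. There are 5 processed pseudogenes that resemble Fabp5 over at least 30% of its transcript at 85% identity or more; of these 4 have a row, listed at 0 in every library. How shared reads were assigned is not stated in the labels.

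Cd36, the fatty acid and scavenger receptor (chromosome 5, 17781690 to 17888959), was at 9.80, 9.88, 10.17 and 10.19 in HFD 22, 23, 26 and 27, and at 9.36, 10.55, 10.14 and 9.61 in ND 15-17-18, 16, 19 and 20. The ND libraries spanned a wider range on both sides of HFD. The difference was 0.10 ± 0.24 (SE), with an interval of -0.45 to 0.64 (limma adjusted p = 0.90). It was -0.09 without ND 15-17-18, -0.068 without ND 15-17-18 and ND 19, and 0.95 on the deposited scale, where the median row was at 0.90.

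Slc27a2, a very long-chain acyl-CoA synthetase best known from liver and kidney (chromosome 2, 126553024 to 126588243), was at 7.49, 7.33, 6.77 and 7.05 in HFD 22, 23, 26 and 27, and at 6.37, 6.17, 7.15 and 6.09 in ND 15-17-18, 16, 19 and 20. ND 19 lay among the HFD libraries and the other 3 ND libraries below them. The difference was 0.72 ± 0.30 (SE), 1.64-fold with an interval of 1.03 to 2.63 (limma adjusted p = 0.45), and 1.56 on the deposited scale. Without ND 19 it was 0.95 (limma adjusted p = 0.21), without ND 15-17-18 and ND 19 it was 1.03 (limma adjusted p = 0.28), and in both cases the groups did not overlap. A noncoding gene on the other strand, Gm26697, shares 419 exon bases with Slc27a2, which is 14.4% of its exons, and the labels do not say whether counting used strand. Slc27a1, the transporter of muscle and fat (chromosome 8, 71568728 to 71587307), ranged from 10.16 to 10.52 in HFD libraries and from 9.87 to 10.55 in ND libraries. Its difference was 0.14 ± 0.18 (SE; interval -0.26 to 0.55; limma adjusted p = 0.78), and 1.0 on the deposited scale. It was 0.033 without ND 15-17-18, 0.038 without ND 16, 0.24 without ND 19 and 0.26 without ND 20. Slc27a4, a main transporter of epithelia such as intestine and skin (chromosome 2, 29802634 to 29817522), was the steadiest of the 9. It was at 11.23 ± 0.07 in HFD and 11.25 ± 0.13 in ND (SD, n = 4 each). The difference of -0.02 ± 0.10 (SE) had an interval of -0.25 to 0.22 (limma adjusted p = 0.96). This bounds a change in level at 0.84-fold to 1.16-fold on this scale. On the deposited scale the difference was 0.84. Without ND 15-17-18 and ND 19 it was -0.13 (limma adjusted p = 0.66). All HFD libraries then lay below the remaining ND libraries, as in 2113 of the 26747 rows tested in that setting.

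Dbi, the acyl-CoA binding protein (chromosome 1, 120113280 to 120121096), is used by most cells. It was at 10.18, 10.32, 10.79 and 9.63 in HFD 22, 23, 26 and 27, and at 9.41, 9.15, 9.48 and 9.47 in ND 15-17-18, 16, 19 and 20. The groups did not overlap, with HFD 27 the nearest to the ND libraries, and the ND libraries were close together (SD 0.15, against 0.48 in HFD). The difference was 0.85 ± 0.22 (SE), 1.80-fold with an interval of 1.28 to 2.54 (limma adjusted p = 0.25). Over the 18 alternatives it ran from 0.66 without HFD 26 to 1.71 on the deposited scale, with limma adjusted p from 0.18 to 0.70. A processed pseudogene, Gm12222, matches 45.9% of the Dbi transcript at 93.9% identity and was listed at 0 in every library.

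**Figure D2:**
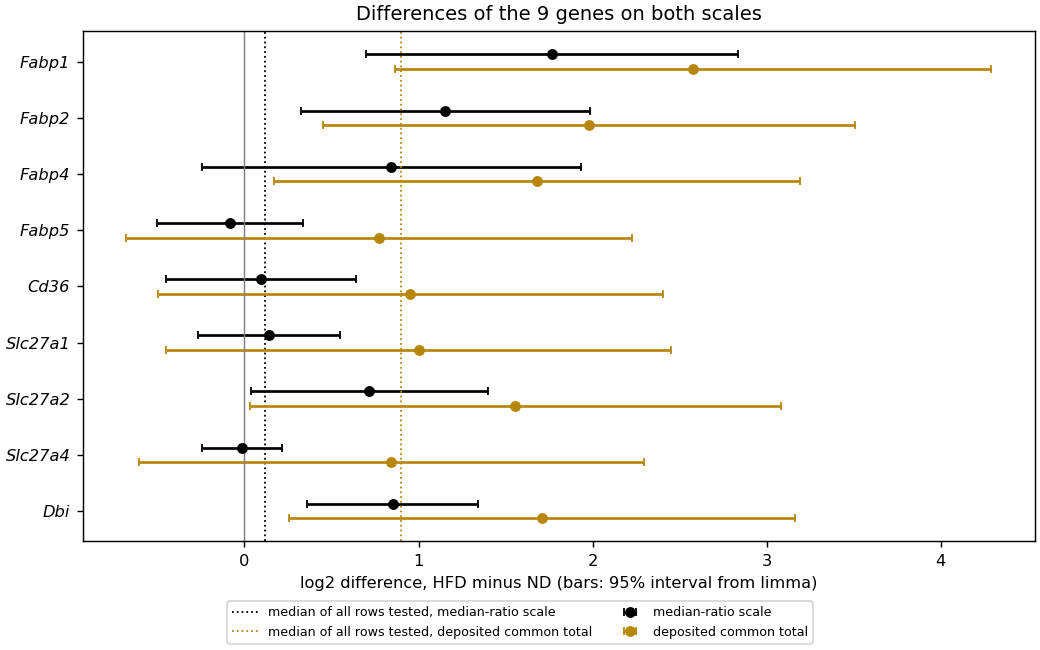
Log2 difference, HFD minus ND, of each of the 9 genes with its 95% interval from limma, on the median-ratio scale (black) and on the deposited common total (gold); dotted lines are the medians of all 27401 rows tested, 0.12 and 0.90. On both scales Fabp1, Fabp2, Fabp4, Slc27a2 and Dbi lie right of the median row of their scale, and the other 4 lie close to it.

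Since the scale moves all genes of a library together, the genes were also set against Slc27a4 of the same library, which needs no scaling between libraries. Slc27a4 was picked for this after its values were seen, and the comparison is a description with no test. As Slc27a4 differed by only -0.02 on the median-ratio scale, differences of these ratios had to stay close to those of that scale. Log2 of Fabp1 over Slc27a4 was -5.08 ± 0.55 in HFD and -6.92 ± 0.77 in ND (SD, n = 4 each), with -5.57 the lowest HFD library and -6.08 the highest ND library. For Dbi it was -1.01 ± 0.47 in HFD and -1.87 ± 0.25 in ND, with -1.61 the lowest HFD library and -1.63 the highest ND library. The groups were apart for Fabp1 and, by a narrow gap, for Dbi. They overlapped for the other 6 genes, among them Fabp2 (-4.47 to -3.48 in HFD, -5.51 to -4.14 in ND) and Slc27a2 (-4.53 to -3.80 in HFD, -5.30 to -3.97 in ND). Fabp5, Cd36 and Slc27a1 differed by -0.07, 0.11 and 0.16 on this ratio.

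**Figure D3:**
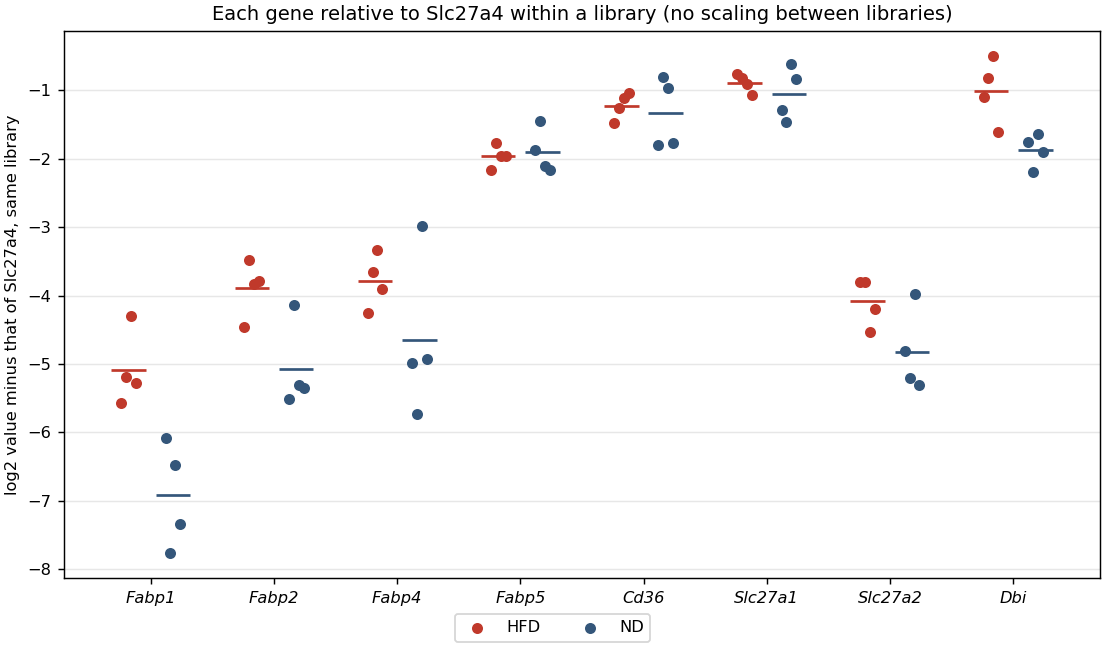
Log2 value of each gene minus that of Slc27a4 in the same library, from the deposited values; each point is a library, HFD in red left of ND in blue, and lines are group means. The lowest HFD point lies above the highest ND point for Fabp1 and Dbi, and Fabp4 of ND 19, at -2.98, is the highest of its 8 points.

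To compare levels between genes, linear values on the median-ratio scale were divided by the length of all annotated exons (GENCODE M21, GRCm38). Dbi had the highest mean in both groups by this measure, at 1434 ± 466 per kb in HFD and 766 ± 77 per kb in ND (SD, n = 4 each). Fabp5 (627 ± 46 in HFD, 681 ± 198 in ND) and Slc27a4 (595 ± 30 in HFD, 602 ± 56 in ND) followed, and these neighbours did not differ beyond their spread. In ND libraries Dbi (653 to 818 per kb) lay within the range of Fabp5 (522 to 970.2 per kb), so Dbi stood above Fabp5 throughout in HFD libraries only. Slc27a1 was at 459 ± 47 per kb in HFD and 425 ± 108 per kb in ND, and Cd36 at 294 ± 41 in HFD and 287 ± 108 in ND. Fabp4, Fabp2 and Fabp1 were lower, at 200 ± 56, 172 ± 39 and 137 ± 63 per kb in HFD and 137 ± 119, 82.7 ± 47.5 and 39.2 ± 17.3 per kb in ND, and overlapped one another within HFD. Slc27a2 had the lowest mean, at 49.6 ± 10.6 per kb in HFD and 30.9 ± 11.8 per kb in ND. Its range in ND libraries, 23 to 48.2 per kb, overlapped that of Fabp1, 21.7 to 61.0 per kb. The labels do not say how reads in introns were counted.

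For each gene whose groups did not overlap, the 3 genes with the closest centred profile over the 8 libraries were sought among 23718 rows with a symbol, by the root-mean-square distance of log2 values. Dbi lay closest to Coa3, an assembly factor of cytochrome c oxidase, at a distance of 0.10, to Uqcrq, a subunit of respiratory complex III, at 0.17, and to the ribosomal protein pseudogene Rpl23a-ps3, at 0.17. Coa3 ran from 9.02 to 10.27 in HFD libraries and from 8.49 to 8.98 in ND libraries. The closest to Fabp1 were A930006K02Rik, Gm4332 and Cilp, a cartilage matrix protein gene, at distances of 0.42, 0.43 and 0.44.

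Related genes of the pathway were described in 7 lists. Of their 56 genes 51 were tested and 0 were called in either direction (adjusted over all rows), against 0.0109% of all rows. Of 8 tested members of the other intracellular lipid binding proteins, 6 differences were positive, with a median of 0.22, and none had an unadjusted p under 0.05. Rbp2, an intestinal retinol binding protein of the same fold, differed by 0.56 ± 0.36 (SE), and Fabp12 and the myelin protein Pmp2 are given above. The remaining transporters Slc27a3, Slc27a5 and Slc27a6 differed by -0.05 ± 0.32, 0.43 ± 1.12 and -0.21 ± 0.46 (SE), with a list median of -0.05, while on the deposited scale all 3 were positive, at 0.79, 1.11 and 0.59.

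Of 6 tested relatives of Dbi with an acyl-CoA binding domain 3 were positive, with a median of -0.05, or 0.77 on the deposited scale. Acbd3, a Golgi scaffold protein, stood at 9.60 to 9.85 in HFD libraries and 9.99 to 10.35 in ND libraries, a difference of -0.37 ± 0.12 (SE; limma adjusted p = 0.33). Acbd4 stood at 8.55 to 8.77 in HFD libraries and 8.83 to 9.21 in ND libraries, a difference of -0.35 ± 0.13 (SE; limma adjusted p = 0.40). Groups of Acbd3 and Acbd4 did not overlap and were lower in HFD, against 3.12% of all rows; on the deposited scale both differences were positive, at 0.49 and 0.51, below the median row there. Eci2, a peroxisomal enoyl-CoA isomerase with such a domain, was at 0.33 ± 0.17 and Acbd5, a peroxisomal tether, at 0.24 ± 0.36 (SE).

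Among the 7 long-chain acyl-CoA synthetases, which activate fatty acids after entry, the median was -0.015, or 0.84 on the deposited scale. Acsl1 averaged 11.76 in HFD and 11.49 in ND, a difference of 0.26 ± 0.14 (SE). Acsl6 was at 0.74 ± 0.72 and Acsbg1 at -0.58 ± 0.47 (SE), the second of these at 0.23 on the deposited scale. Acsl3 was at 9.82 to 9.88 in HFD libraries and 9.97 to 10.66 in ND libraries (-0.33 ± 0.16, SE; limma adjusted p = 0.50; 0.53 on the deposited scale). Of 15 genes of surface uptake and lipoprotein handling 7 were positive, with a median near 0, or 0.855 on the deposited scale. Angptl4, a secreted inhibitor of lipoprotein lipase and a known PPAR target, stood at 5.97 to 6.78 in HFD libraries and 3.35 to 5.80 in ND libraries, a difference of 1.56 ± 0.55 (SE; limma adjusted p = 0.37). Scarb2, a lysosomal membrane protein related to Cd36, stood at 10.69 to 11.81 in HFD libraries and 10.12 to 10.48 in ND libraries, a difference of 0.70 ± 0.23 (SE; limma adjusted p = 0.34). Gpihbp1, the capillary anchor of lipoprotein lipase, was at 1.94 ± 1.16 (SE).

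Genes that place or palmitoylate Cd36 had a median of 0.25, with 6 of 7 positive and none at an unadjusted p under 0.05. The palmitoyltransferase Zdhhc5 was at -0.24 ± 0.12 (0.62 on the deposited scale) and the selenoprotein Selenok at 0.38 ± 0.25, while the kinases Lyn and Fyn were at 0.40 ± 0.29 and 2.08 ± 1.69 (SE), Fyn with 13.50 in its highest HFD library and 5.42 in its lowest. Of 5 tested fatty acid receptors 3 were positive, with a median of 0.41. Hcar2, a receptor of butyrate and ketone bodies, stood at 3.90 to 5.12 in HFD libraries and 2.58 to 3.46 in ND libraries, near the floor (1.46 ± 0.61, SE; limma adjusted p = 0.45). Ffar2 and Ffar4, receptors of short-chain and long-chain fatty acids, were at 0.41 ± 0.29 and 0.43 ± 0.51 (SE). Ffar3, a second short-chain receptor, was at -0.96 ± 1.28 (SE), with 3.54 to 4.62 in HFD libraries and 2.94 to 9.34 in ND libraries.

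**Figure D4:**
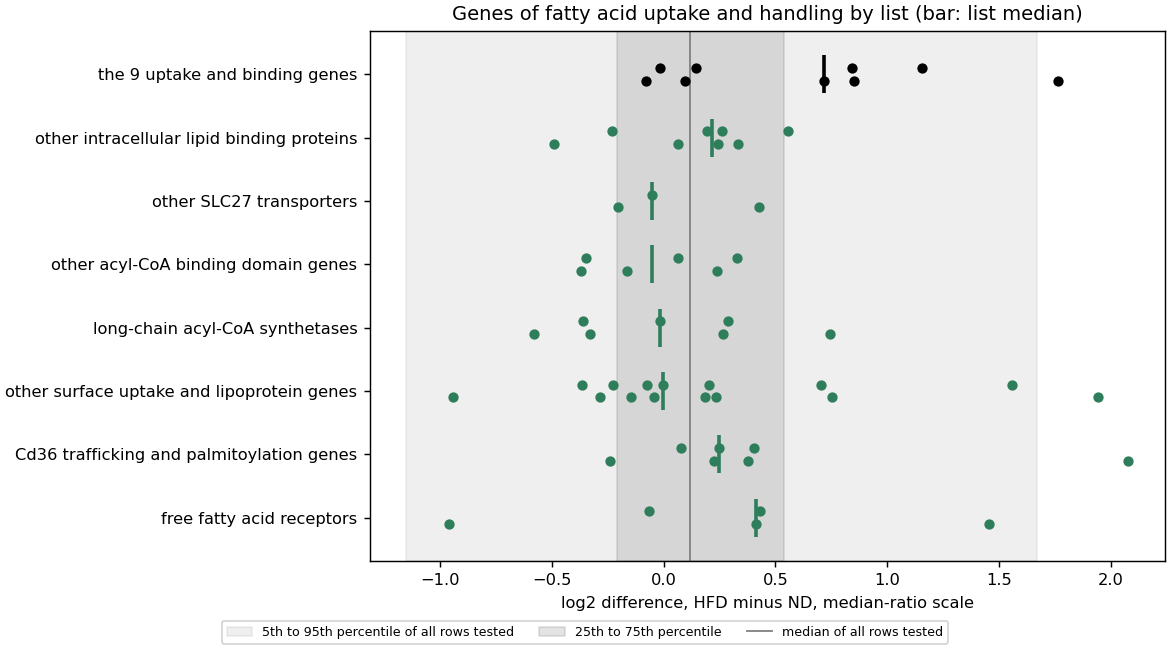
Log2 difference, HFD minus ND, on the median-ratio scale for the 9 uptake and binding genes (black) and the 7 lists of related genes (green); each point is a gene and each bar a list median. Grey bands are the ranges of all 27401 rows tested: the inner band runs from -0.21 to 0.54, the outer from -1.15 to 1.67. The highest related gene is Fyn at 2.08, above the outer band.

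Markers of the cells in which these genes are usually abundant are given beside them. In bulk RNA, more cells of a type and more RNA per cell cannot be told apart. The endothelial list, all 13 of 13 tested, averaged 7.06 to 7.30 in HFD libraries, and 6.17, 5.95, 7.80 and 6.59 in ND 15-17-18, 16, 19 and 20. ND 19 was the highest and ND 16 the lowest of the 8 libraries, as they were for Fabp4. Among the marker lists only the endothelial list had both, while each alone was seen in others. ND 19 was also the highest for the hepatocyte, pancreatic acinar and parietal lists, at 5.84, 7.41 and 11.20. ND 16 was also the lowest for the smooth muscle and mucous neck lists, at 6.01 and 11.06. The adipocyte list, 11 of 12 tested, averaged 3.64 to 4.32 in HFD libraries and 3.45 to 4.45 in ND libraries, and its defining gene Adipoq lay between 0 and 1.59 in HFD and between 0 and 1.41 in ND, at the floor. Some other members of the list were well above it. Lipe was at 9.04 in HFD and 9.02 in ND, and Acvr1c at 8.37 in HFD and 8.53 in ND. Plin4 was at 7.86 in HFD and 7.98 in ND, and Cidec at 5.99 in HFD and 6.29 in ND. All were named here after their values were seen. Of the 11 tested genes, 6 had positive differences, against 59.9% of all rows, with a list median of 0.03. The differences ran from -1.62 ± 0.83 for Retn to 1.73 ± 0.96 for Aqp7 (SE). The macrophage list, 13 of 13 tested, averaged 3.73 to 5.04 in HFD libraries and 3.68 to 4.62 in ND libraries. The part of these cells in the Fabp4 and Cd36 values was not tested.

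For Fabp1 and Fabp2, the small intestinal enterocyte list, 17 of 17 tested, averaged 6.13 to 7.05 in HFD libraries and 5.90 to 6.66 in ND libraries, with a median gene difference of 0.26 and 13 of 17 positive. Of its brush border enzymes, Alpi stood at 6.58 to 7.18 in HFD libraries and 5.32 to 6.55 in ND libraries. The difference of Alpi was 0.78 ± 0.34 (SE), with a limma adjusted p of 0.47. Its groups did not overlap, as in no other of the 17 genes, and 4.72% of all rows were likewise higher without overlap. Anpep averaged 12.36 in HFD and 12.10 in ND, Lct 5.21 in HFD and 4.61 in ND, Mep1a 3.89 in HFD and 5.38 in ND, Sis 2.95 in HFD and 1.61 in ND, and Treh 1.24 in HFD and 1.10 in ND. These genes were named after their values were seen. The hepatocyte list, 10 of 10 tested, averaged 4.77 to 5.59 in HFD libraries and 3.87 to 5.84 in ND libraries. HFD 26, the highest library for Fabp1 and Dbi, was the lowest HFD library for both of these lists, at 6.13 and 4.77. HFD 26 was likewise the lowest HFD library for the macrophage, chief, pancreatic acinar and mucous neck lists, at 3.73, 11.73, 6.82 and 11.31. It was also the highest of the 8 libraries for the forestomach squamous list, at 6.74, and the highest HFD library for the surface mucous list, at 16.16.

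For Fabp5, the forestomach squamous list, 13 of 13 tested, averaged 5.91 to 6.74 in HFD libraries and 3.74 to 5.78 in ND libraries, with a median gene difference of 1.93, while Fabp5 itself differed by -0.08. ND 16, the highest library for Fabp5 and Cd36, was at 4.22 for the squamous list. The smooth muscle list, 9 of 9 tested, averaged 8.29 to 8.84 in HFD libraries and 6.01 to 7.88 in ND libraries, and the chief cell list, 9 of 9 tested, 11.73 to 12.45 in HFD libraries and 10.68 to 11.45 in ND libraries. The part of these shifts in the differences of Fabp1, Fabp2, Slc27a2 and Dbi was not tested. The pancreatic acinar list, 12 of 12 tested, averaged 6.82 to 7.18 in HFD libraries and 5.44 to 7.41 in ND libraries. The parietal, surface mucous and mucous neck lists overlapped between the groups, at 10.70 to 11.12, 15.64 to 16.16 and 11.31 to 12.13 in HFD libraries and 10.73 to 11.20, 15.67 to 16.54 and 11.06 to 12.21 in ND libraries.

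**Figure D5:**
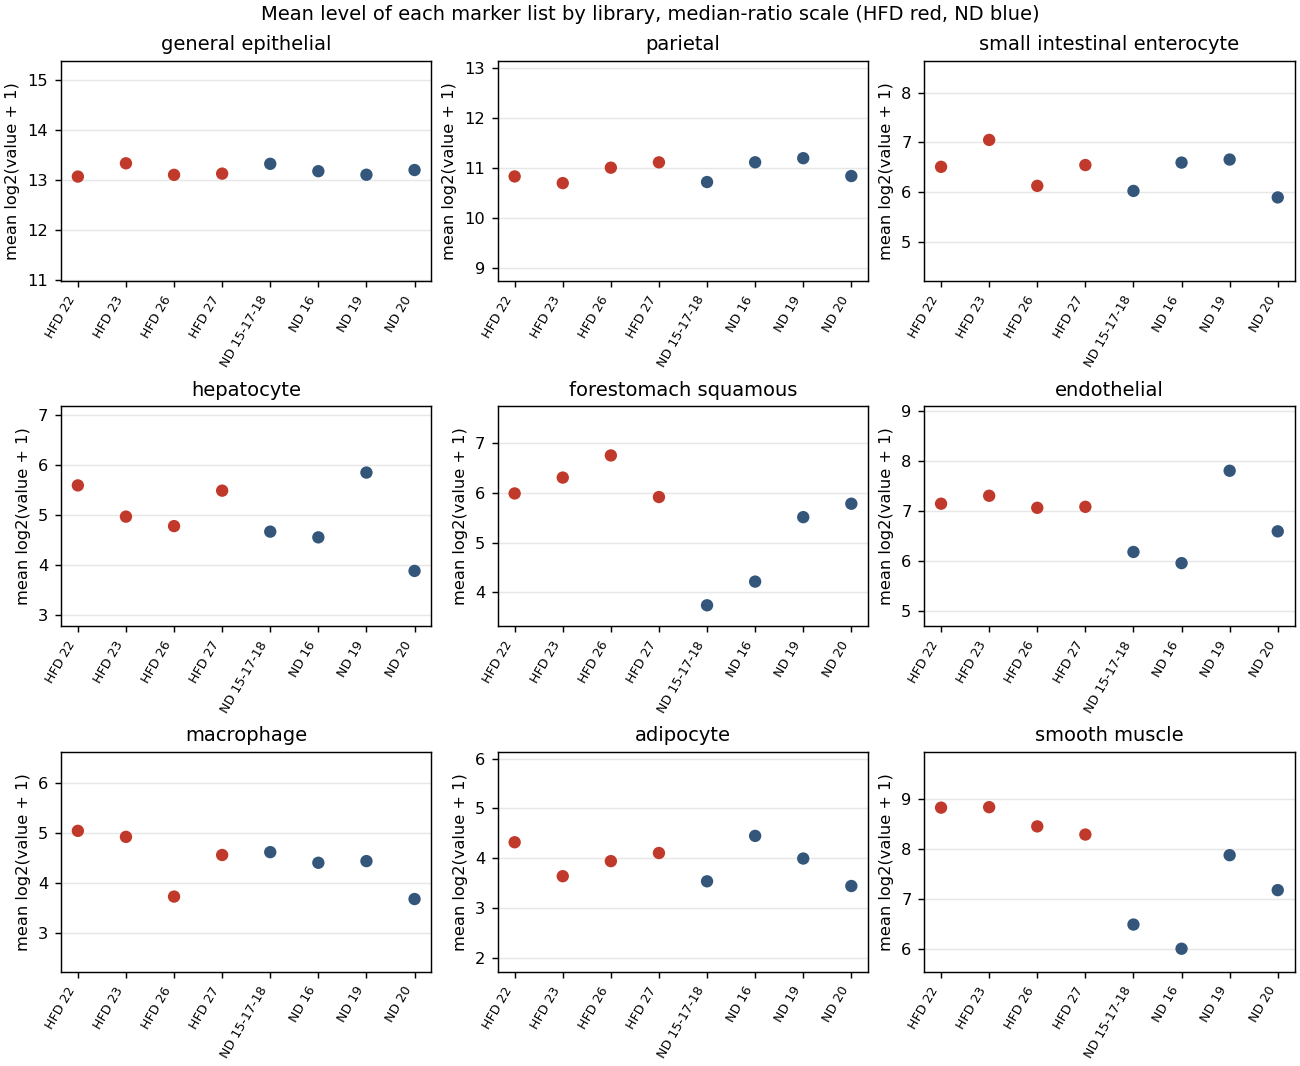
Mean log2(value + 1) of 9 marker lists in each library on the median-ratio scale, HFD in red on the left and ND in blue on the right; each point is a library. The groups are apart for the squamous and smooth muscle lists, and ND 19 is the highest point of the endothelial list, at 7.80.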

How the data were processed

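RNA was measured in 8 libraries of sorted gastric epithelial cells, 4 HFD and 4 ND, grouped by title. Per the labels' protocols, DNase-treated total RNA was freed of ribosomal RNA and made into libraries with an Ion Total RNA-Seq kit. The submitters' processing notes name mm10 and bedtools 2.17.0; aligner, annotation and normalization: not given in the sources used here. The authors deposited, per library, 38920 normalised log2 values by NCBI Gene ID, floored at 0. Their antilogs sum to 36.9 M in each library, within 0.0039%. Of the IDs, 32891 matched RefSeq.

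Deposited zeros stayed zero after the antilog. The most frequent low values of a library share a step across rows, so values were read as not per length. The step was taken as 1 read, which makes depths and read numbers estimates. Since 26.4% to 36.4% of values below 2000 steps were whole within 0.02, no count model was run and no counting interval is given.

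Scaling factors were medians of row-to-mean ratios, taken from the 11115 rows that exceeded 30 in all 8 libraries. The filter kept 27401 rows whose deposited linear value reached 1 in 4 or more libraries, and limma 3.58.1 (R 4.3.3; trend, robust) was run on log2(value + 1), with Benjamini-Hochberg adjustment at 0.05. The pseudocount of 1 shrinks the fold changes of low genes. The fit was tested on simulated data. All 9 genes are named; of each related list at most 4, those with the smallest p, apart from 2 that are not reported here. Members and lists were chosen with earlier results of these data known. Alternatives covered scaling, pseudocount, filter, limma options and left-out libraries; deposited values without ND 15-17-18 were added after seeing the data.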

Additional observations from a re-analysis of the deposited data

How the results depend on the processing

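None of the 9 genes was called in any of the 18 alternatives, and Fabp1, Fabp2, Fabp4, Slc27a1, Slc27a2 and Dbi were positive in all of them. The count of 4 genes at an unadjusted p under 0.05 was 2 without HFD 23 and ND 15-17-18. The median difference of 0.72 was 1.56 on the deposited scale, 0.93 there without ND 15-17-18, 0.58 after quantile normalization, 0.37 with a pseudocount of 100, and 0.53 to 0.89 with 1 library left out. The 3 rows called among all rows became 16 on the deposited scale, 0 there without ND 15-17-18, 0 without ND 15-17-18 and ND 19, 0 without HFD 23 and ND 15-17-18, and 0 to 4 with 1 library left out (0 without ND 15-17-18, ND 19 or ND 20).

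Signs reversed for the genes near 0. On the deposited scale Fabp5 was 0.77 and Slc27a4 0.84, and without ND 15-17-18 there 0.14 and 0.20. After quantile normalization Slc27a4 was 0.038. With 1 library left out Fabp5 ran from -0.20 to 0.10, Cd36 from -0.088 to 0.31 (-0.0071 without ND 20) and Slc27a4 from -0.0615 to 0.0266. Cd36 was -0.068 without ND 15-17-18 and ND 19, and -0.043 without HFD 23 and ND 15-17-18. The cause of these changes was not tested. No paired analysis was possible because the groups share no replicate number. Depth limits Fabp1 most, with 7.4 estimated reads in ND 19.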
